A study of Homo sapiens with 21 samples.

Results

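The comparison described here is a 5-fold step in the dose of extracellular vesicles: HCT-116 cells given HCC+ EVs at 1.2 mg/mL against HCT-116 cells given HCC+ EVs at 0.24 mg/mL. The 6 libraries were chosen by their labels, 3 at each dose, of 21 libraries in all, and no measured value entered the choice. HCT-116 is an established human colorectal carcinoma cell line. EVs are membrane-bound particles that cells release. Here they had been isolated from human serum by the GlyExo-Capture method, and the protocol names serum of HCC patients and of healthy people. The sample titles distinguish HCC+ and HCC- EVs, and the labels do not state outright which serum each name stands for. Both sources were given at 1.2, 0.24 and 0.048 mg/mL, and 3 blank libraries received no EVs. All cells were one line, grown in DMEM with exosome-depleted serum, and neither the length of the treatment nor the number of serum donors is stated. Whether the 3 libraries at a dose stem from independent cultures is not stated, so p-values measure only the spread between these libraries, which may be technical.

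Poly(A) RNA was sequenced and reads were assigned to genes of GRCh38. Library totals, in 1e6 counts, ran from 44.10 to 54.74 for the 6 libraries and from 31.22 to 64.01 for the whole series. In all, 19556 genes passed the filter on low counts. Levels are given in CPM, the count of a gene relative to the library total after TMM scaling, which corrects that total for composition. Changes are log2 fold changes (log2FC) of 1.2 against 0.24 mg/mL ± a standard error (SE), n = 3 libraries a dose. The SE was derived as the absolute log2FC over the square root of the F statistic of edgeR's quasi-likelihood test. A gene was called where the Benjamini-Hochberg adjusted p of that test, over all 19556 genes, was under 0.05. In RNA from whole cultures, fewer cells of a kind and less RNA per cell cannot be told apart.

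ATF4 is a transcription factor of the integrated stress response, the pathway that slows protein synthesis when amino acids run short or protein folding fails. ATF4 then binds a composite promoter element, the CARE site, and turns on genes for amino acid synthesis, amino acid import and the charging of tRNAs. In proliferating carcinoma cells the same genes feed serine and one-carbon metabolism, which supplies nucleotide synthesis. E2F factors drive the genes of DNA replication, and p53, which is wild type in HCT-116, drives genes that stop the cell cycle.

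The dose step changed 5704 of 19556 tested genes (29.2%). Of these, 2681 were higher at 1.2 mg/mL (13.7%) and 3023 were lower (15.5%). Among the lists, 10 of 12 serine and one-carbon enzymes, 14 of 18 tRNA synthetases, 20 of 24 DNA replication genes, 23 of 23 mitosis genes and 18 of 20 ribosome biogenesis genes fell. In the other direction, 16 of 20 p53 targets, 10 of 12 replication histones, 12 of 22 lysosome and autophagy genes and 5 of 10 osmolyte and tonicity genes rose. Most changes were small, with a median absolute log2FC of 0.412 among the called genes. The larger changes ran upward: 581 genes rose by at least 1 on the log2 scale and 135 fell by at least 1. The median log2FC over all tested genes was 0.007. Scaled to the total count alone that median was 0.115, and 69.4% of the calls were then higher, against 47.0% with TMM scaling.

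The dose separated the 6 libraries along the first principal component of log2 CPM, which held 43.2% of the variance. The libraries at 1.2 mg/mL lay at 48.8, 29.4 and 32.1, and those at 0.24 mg/mL at -29.4, -38.8 and -42.1. Replicate 1 at 1.2 mg/mL lay farthest from the lower dose, and without it 4169 genes were called. The number of genes with at least 10 counts was 17727 to 17969 at 1.2 mg/mL and 17097 to 17441 at 0.24 mg/mL.

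**Figure D1:**
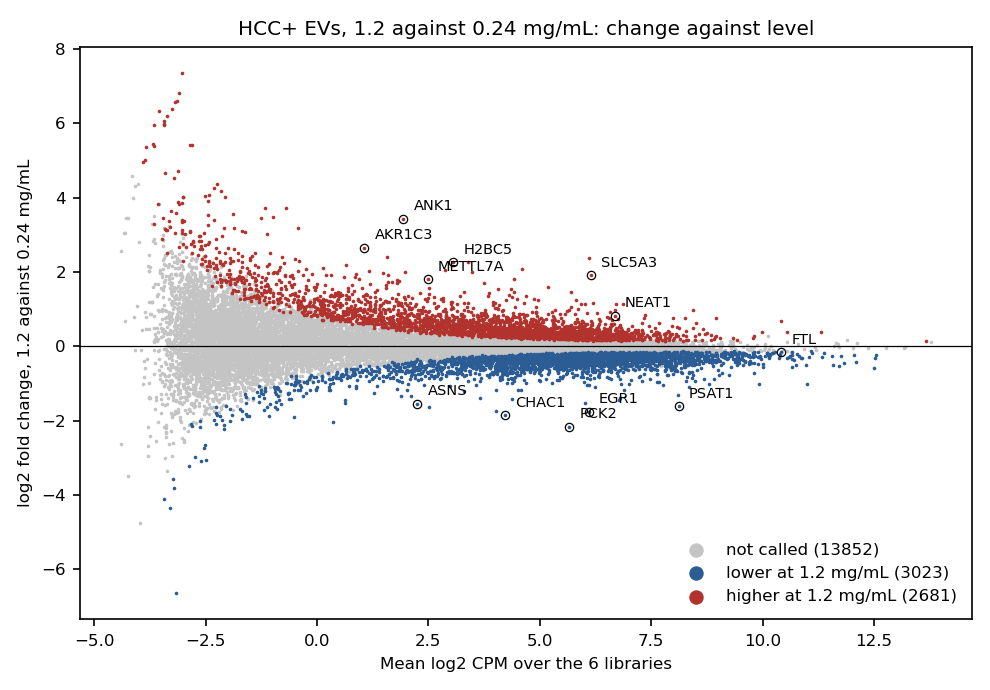
Log2 fold change of each tested gene (1.2 against 0.24 mg/mL of HCC+ EVs, vertical axis) against its mean log2 CPM over the 6 libraries (horizontal axis), with called genes in colour (3023 lower, 2681 higher) and 12 genes circled. The large rises sit mostly among genes with few counts, and PCK2, PSAT1 and EGR1 are among the largest falls of well-measured genes.

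The genes that rose and those that fell differed in level. Called genes that rose had a median mean level of 3.94 log2 CPM, a median exonic length of 5305 bases and a median GC content of 52.8%. Those that fell had medians of 5.67 log2 CPM, 4331 bases and 47.5%. Over all tested genes the medians were 3.18 log2 CPM, 3987 bases and 49.1%. Of the 581 genes that rose by at least 1, 341 had a mean level under 0 log2 CPM. Among the 3505 genes at a mean log2 CPM of 6 or above, 1294 fell and 451 rose. With trends in GC content and length removed from each library, 6824 genes were called.

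Promoters of the amino acid genes are shown because CARE sites were found in a larger share of them than of all promoters. Each stretch of 30 bases comes from the RefSeq promoter table on GRCh38.p14 (250 bases before to 50 after the start of a gene), is written 5′ to 3′ on the strand of the gene, and has the CARE letters, TGATGNAA or the reverse complement, in capitals.
ASNS (chr7:97872458-97872487, minus strand): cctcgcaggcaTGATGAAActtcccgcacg
CHAC1 (chr15:40953251-40953280, plus strand): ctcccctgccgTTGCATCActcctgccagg
AARS1 (chr16:70289675-70289704, minus strand): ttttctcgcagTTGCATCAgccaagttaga
MTHFD1L (chr6:150866346-150866375, plus strand): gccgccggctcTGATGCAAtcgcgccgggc
ATF3 (chr1:212565205-212565234, plus strand): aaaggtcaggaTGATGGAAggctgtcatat
The first 4 genes fell with the dose step, by values given below, and ATF3 missed the threshold at a log2FC of -0.21 ± 0.08 (adjusted p = 0.0572, edgeR). Of the 59 tested genes on the 4 lists of amino acid biology, 48 had a promoter in the table, and 14 of these (29.2%) held a CARE site. Among all tested genes with a promoter the share was 1.75% (221 of 12607). For all genes that fell it was 2.15% (52 of 2414), and for all that rose 1.29% (25 of 1940). The 4 lists name genes of the kind that ATF4 turns on, so their larger share is a description and not a test. By list, a site was in 6 of 14 promoters for the tRNA synthetases, 4 of 17 for ATF4 targets and 3 of 10 for amino acid transporters. For the serine and one-carbon enzymes it was in 1 of 7. A match describes these letters and does not show that a factor binds there.

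Genes of the integrated stress response formed the list with the lowest median. Of 18 tested ATF4 targets and partners, 13 fell, 1 rose and 4 were not called, with a median log2FC of -0.82. PCK2, whose mitochondrial product turns oxaloacetate into phosphoenolpyruvate (ENSG00000100889, chr14:24094053-24110598 on GRCh38), measured 25.6, 23.0 and 23.2 CPM at 1.2 mg/mL and 102, 111 and 109 CPM at 0.24 mg/mL. The groups were far apart, with a log2FC of -2.16 ± 0.09 (adjusted p = 2.62e-17, edgeR), the largest fall among called genes whose mean log2 CPM was 1 or more. CHAC1, which degrades glutathione, measured 12.8, 8.50 and 8.42 CPM against 34.2, 36.0 and 36.9 CPM (log2FC -1.86 ± 0.19). DDIT3, the stress factor CHOP, measured 3.16, 3.30 and 3.20 CPM against 8.13, 10.1 and 11.8 CPM (log2FC -1.63 ± 0.23). Neither gene's groups overlapped. ASNS, the asparagine synthetase, measured 3.22, 2.43 and 2.69 CPM against 8.57, 7.31 and 8.37 CPM (log2FC -1.54 ± 0.14).

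ATF4 itself was also lower. Its mRNA measured 420, 374 and 392 CPM at 1.2 mg/mL and 670, 684 and 682 CPM at 0.24 mg/mL, with a log2FC of -0.78 ± 0.07 (adjusted p = 2.43e-10, edgeR). TRIB3, a pseudokinase that ATF4 induces, fell by 1.38 on the log2 scale, the secreted STC2 by 1.46 and the ATF4 partner CEBPG by 0.86. FGF21, a hormone gene, had 0, 2 and 4 counts at 1.2 mg/mL and 11, 18 and 21 at 0.24 mg/mL, a ratio of 0.121 with an exact 95% interval from 0.0425 to 0.283 that covers counting error only. GDF15, a stress cytokine that p53 also induces, was the member that rose, from 135, 176 and 179 CPM to 250, 209 and 226 CPM (log2FC 0.48 ± 0.12). The uncalled members were ATF3, NUPR1, PPP1R15A and VLDLR.

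The enzymes of serine and one-carbon metabolism fell as well: 10 of 12 tested members were lower and 1 was higher, with a median of -0.68. PSAT1, the transaminase of serine synthesis (ENSG00000135069, chr9:78297125-78330093 on GRCh38), measured 152, 162 and 161 CPM at 1.2 mg/mL against 480, 468 and 503 CPM at 0.24 mg/mL. Its log2FC of -1.61 ± 0.06 had the smallest adjusted p of all tested genes (1.47e-18, edgeR). PHGDH, which starts that route, measured 176, 168 and 179 CPM against 418, 450 and 436 CPM (log2FC -1.32 ± 0.06). The third enzyme of the route, PSPH, fell by 0.49 on the log2 scale. In the mitochondrial folate branch ALDH1L2 fell by 1.33, MTHFD2 by 0.93, MTHFD1L by 0.81 and SHMT2 by 0.70.

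Amino acid carriers followed, with 9 of 11 tested members lower and 1 higher (median -0.75). SLC7A11, the cystine importer, measured 40.2, 38.5 and 35.5 CPM against 113, 102 and 113 CPM (log2FC -1.53 ± 0.13). SLC7A5 and SLC3A2, which together form the LAT1 exchanger of large neutral amino acids, had a log2FC of -1.02 each. SLC1A4 fell by 1.16 on the log2 scale and SLC7A1, the carrier of cationic amino acids, by 0.96. SLC38A2, a glutamine carrier that also responds to tonicity, went the other way, from 1180, 996 and 1044 CPM to 1828, 1803 and 1566 CPM (log2FC 0.69 ± 0.12).

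Of 18 cytosolic aminoacyl-tRNA synthetases, the enzymes that load tRNAs with amino acids, 14 fell and none rose (median -0.66). YARS1, the tyrosyl enzyme, measured 208, 232 and 227 CPM against 462, 470 and 485 CPM (log2FC -1.09 ± 0.06, adjusted p = 1.28e-14, edgeR). SARS1 fell by 1.05, GARS1 by 0.94, AARS1 and WARS1 by 0.89 each. The 4 that were not called were HARS1, QARS1, RARS1 and VARS1, all between -0.12 and 0.04.

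**Figure D2:**
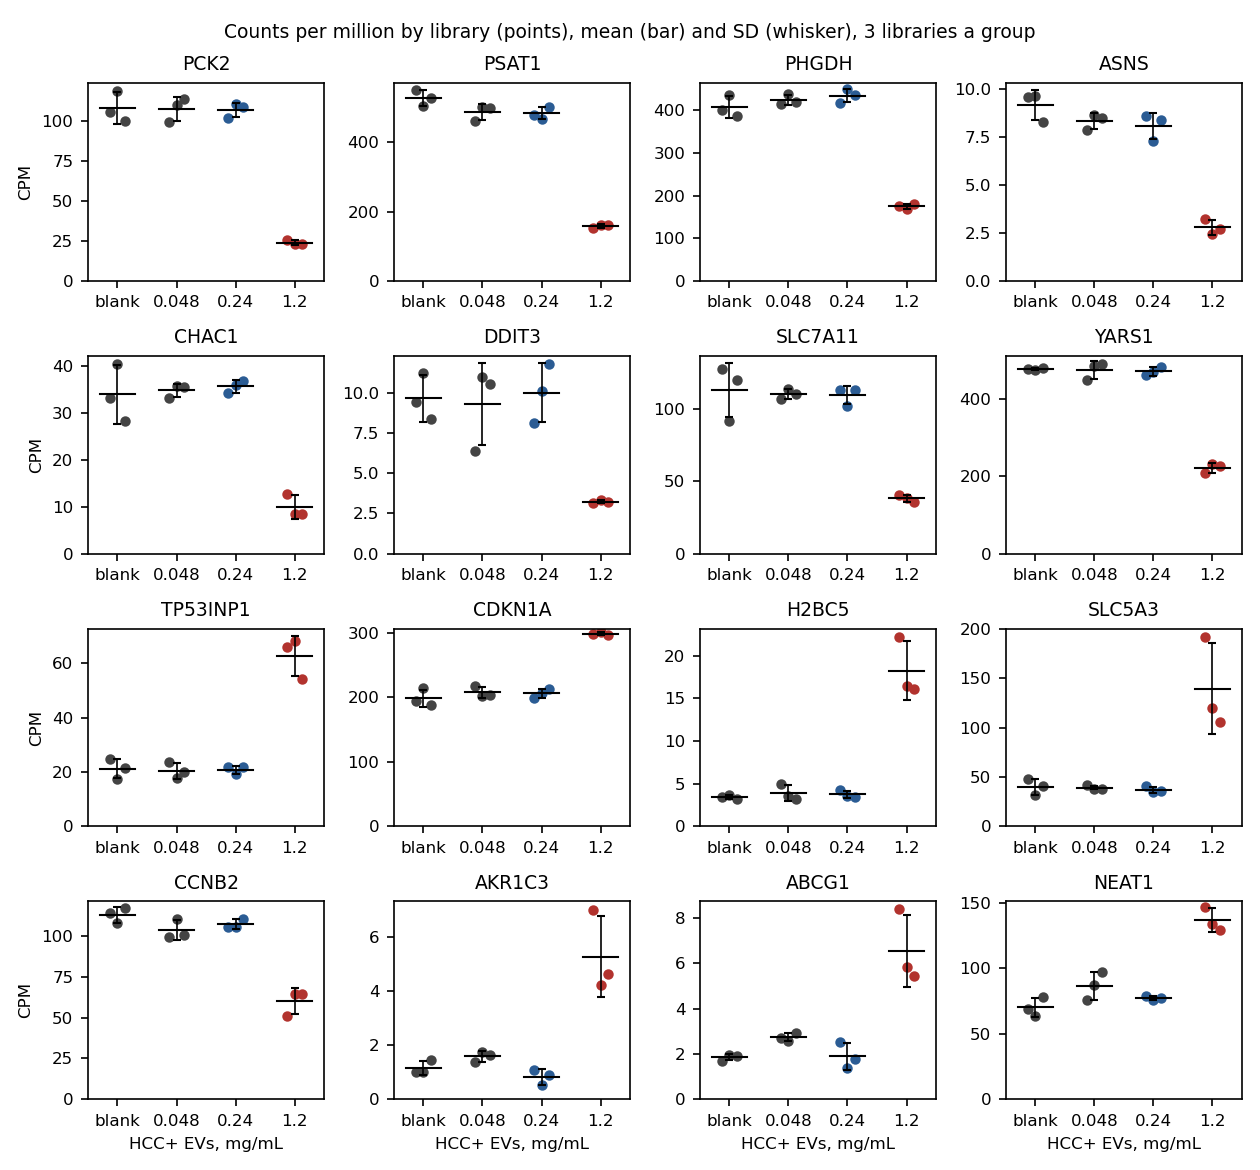
CPM of 16 genes in each library of the blank and of HCC+ EVs at 0.048, 0.24 and 1.2 mg/mL, with the mean (bar) and SD (whisker) of 3 libraries. In each of the 16 genes the 3 libraries at 1.2 mg/mL stand apart from the other groups, as for PCK2 at 23.0 to 25.6 CPM against 102 to 111 CPM at 0.24 mg/mL.

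Proliferation genes fell broadly and by less. All 23 tested genes of mitosis were lower (median -0.50), and 20 of them were called lower with scaling to the total count alone. CCNB2, a mitotic cyclin, measured 51.0, 64.6 and 64.9 CPM against 106, 106 and 111 CPM (log2FC -0.84 ± 0.07, adjusted p = 6.78e-10, edgeR). PLK1, a mitotic kinase, fell by 0.75, CDC20, which activates the anaphase-promoting complex, by 0.69, and the proliferation marker MKI67 by 0.50. Replicate 1 at 1.2 mg/mL was the lowest library for each of these 4 genes.

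Of 24 genes of DNA replication, 20 fell and none rose (median -0.38). RRM1, a subunit of ribonucleotide reductase, measured 136, 160 and 163 CPM against 236, 224 and 235 CPM (log2FC -0.60 ± 0.07). MCM7, a subunit of the replicative helicase, measured 494, 489 and 565 CPM against 746, 755 and 763 CPM (log2FC -0.55 ± 0.06). PCNA, GINS4, POLE2 and POLD1 were not called, with log2FC between -0.20 and -0.15. The E2F letters TTCCCGC or TTGGCGC, on either strand, were in 14 of the 21 promoters of this list that the RefSeq table holds (66.7%), against 14.0% of all tested genes with a promoter. For comparison with the CARE stretches, a site from each of 3 of these genes is written with the E2F letters in capitals.
MCM7 (chr7:100101566-100101595, minus strand): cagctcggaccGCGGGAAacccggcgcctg
MCM6 (chr2:135876576-135876605, minus strand): gggctttgcatTTGGCGCgaaatccctttc
RRM1 (chr11:4094451-4094480, plus strand): caagaaaaacgTTCCCGCcggttaggtttt
No promoter of the DNA replication list held a CARE site. That list names genes of the kind that E2F factors drive, so its larger share of E2F letters is a description and not a test.

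At the start of the cell cycle the genes did not move one way. Of 18 tested G1 cyclins, kinases and inhibitors, 3 rose and 4 fell, beside 13.7% and 15.5% of all tested genes. With scaling to the total count alone 6 rose and 3 fell. The number that fell was 2 without replicate 1 at 1.2 mg/mL or without replicate 3 at 0.24 mg/mL. CDK4, a G1 kinase, fell from 193, 203 and 185 CPM to 139, 133 and 140 CPM (log2FC -0.49 ± 0.06). The inhibitors CDKN1C (log2FC 0.71 ± 0.14) and CDKN2B (0.49 ± 0.12) rose. E2F1 was not called, at 52.9, 45.3 and 53.5 CPM against 41.8, 45.3 and 42.6 CPM (log2FC 0.23 ± 0.09, adjusted p = 0.0515, edgeR).

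Targets of p53 rose in 16 of 20 tested cases and fell in 1 (median 0.43). TP53INP1, which promotes cell death and autophagy, measured 66.0, 68.1 and 54.3 CPM against 21.7, 19.2 and 21.7 CPM (log2FC 1.59 ± 0.13, adjusted p = 1.41e-09, edgeR). CDKN1A, the inhibitor p21, measured 298, 301 and 296 CPM against 199, 207 and 212 CPM (log2FC 0.54 ± 0.06). Both groups of each gene were apart. BBC3, the cell death protein PUMA, rose by 0.90 on the log2 scale and the antiproliferative BTG2 by 0.88. GADD45A was the member that fell (-0.32 ± 0.09), and it was not called with scaling to the total count alone.

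Histone genes of the replication-dependent class rose while the replication genes fell: 10 of 12 tested members were higher and none lower (median 1.70). H2BC5 measured 22.2, 16.5 and 16.1 CPM against 4.27, 3.54 and 3.48 CPM (log2FC 2.27 ± 0.16). H2AC6 rose by 2.26, H3C6 by 2.00, H2BC12 by 1.55 and H1-2, a linker histone, by 1.44. Most messages of this class lack a poly(A) tail, so a poly(A) library counts only their polyadenylated part. Histone genes are near-identical copies, and how the authors' counting treated reads that match several of them is not given in the sources used here, so the values of single genes are uncertain.

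Genes of ribosome production were lower. Of 20 genes of ribosome biogenesis, 18 were lower and none higher (median -0.40), among them MRTO4, a ribosome assembly factor (-0.68 ± 0.06), PES1 (-0.57 ± 0.06) and the nucleolar protein NCL (-0.49 ± 0.06). Of 26 cytosolic ribosomal protein genes, 20 were lower (median -0.20), and 7 with scaling to the total count alone (median -0.09). Ribosomal protein genes have many processed pseudogenes that could share their reads. ODC1 and SRM, enzymes of polyamine synthesis that MYC induces, fell by 0.78 and 0.58, while MXD4, a MYC antagonist, rose from 34.1, 30.9 and 28.2 CPM to 98.0, 80.3 and 80.4 CPM (log2FC 1.47 ± 0.11). The whole list holds MYC, factors of its network and its core targets, and 3 of 12 tested members rose and 6 fell. Those that rose were the network factors MXD4, MXD1 and MLXIPL.

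Genes of energy metabolism were lower where they were called. Glycolysis and hypoxia genes fell in 15 of 24 cases and rose in none (median -0.40). The median level of this list, as log2(CPM + 1) over the mean of the blank, was -0.039, 0.394 and 0.364 at 0.24 mg/mL. At 1.2 mg/mL it was -0.256, -0.100 and -0.032, and in the blank libraries -0.136, 0.198 and -0.067. GAPDH, a glycolytic enzyme, measured 2714, 2794 and 2864 CPM against 3647, 4312 and 4055 CPM (log2FC -0.52 ± 0.08). The libraries at 0.24 mg/mL differed among themselves here: NDRG1, a hypoxia gene, measured 138, 343 and 313 CPM at that dose and 150, 205 and 198 CPM at 1.2 mg/mL, so its groups overlapped and it was not called (log2FC -0.52 ± 0.31). Of 22 nuclear genes of oxidative phosphorylation, 11 fell and none rose (median -0.20), and 6 fell with scaling to the total count alone. Among them ATP5MC1, a subunit of ATP synthase, fell from 100, 101 and 108 CPM to 59.0, 63.0 and 70.4 CPM.

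**Figure D3:**
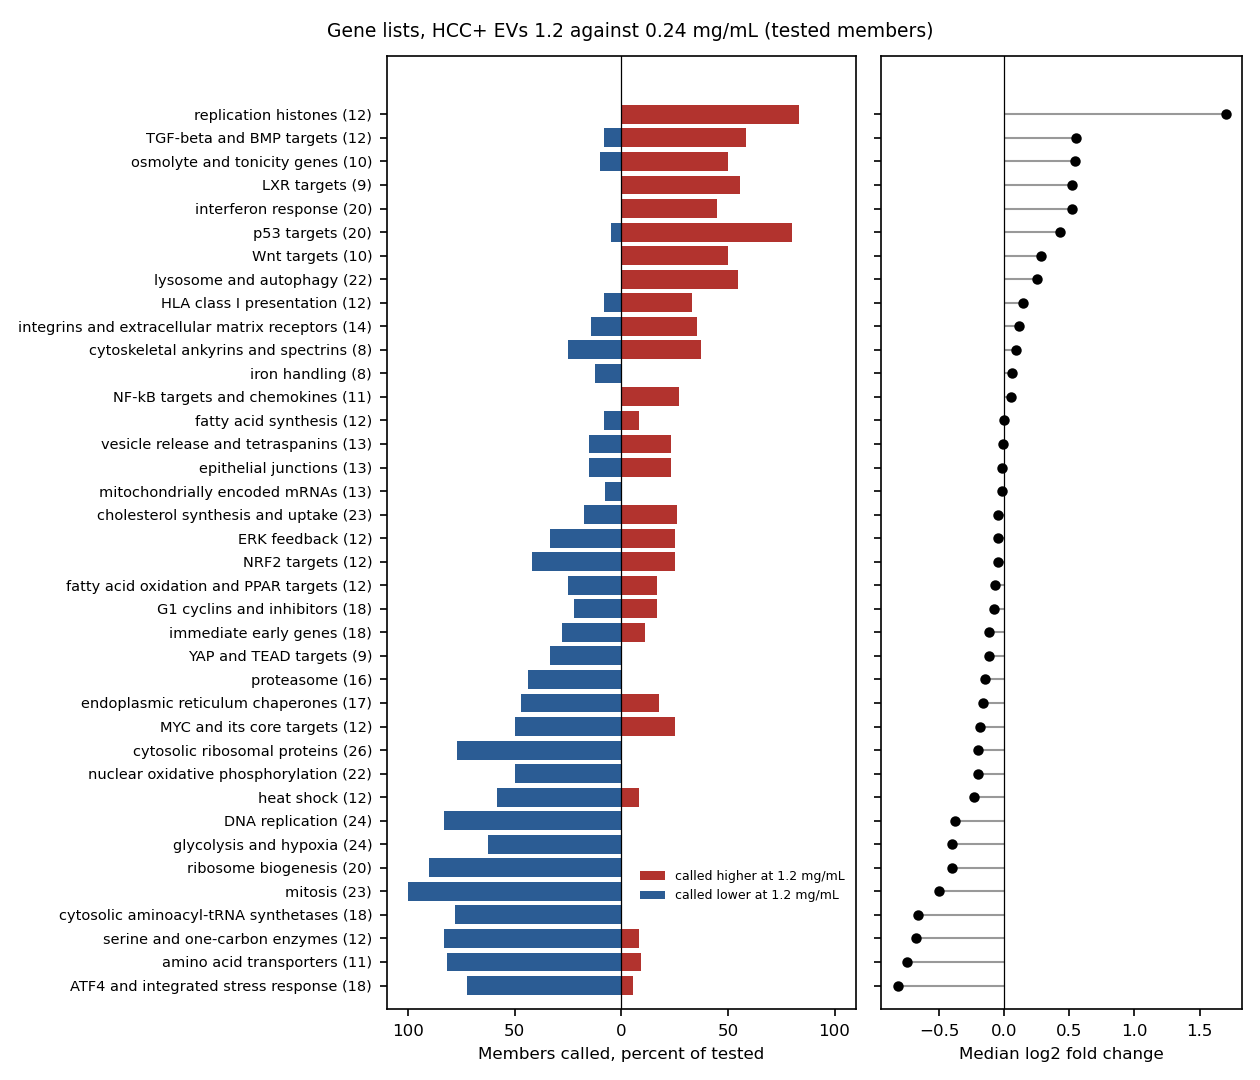
Share of the tested members of each gene list with 8 or more tested members (number in brackets) that was called lower (left) or higher (right) at 1.2 mg/mL of HCC+ EVs, and the median log2 fold change of the tested members (right panel). Mitosis is the list with all members lower (23 of 23), the ATF4 list has the lowest median (-0.82) and the replication histones the highest (1.70).

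Genes of the lysosome and of autophagy rose in 12 of 22 cases and fell in none (median 0.25). ULK1, the kinase that starts autophagy, measured 52.8, 47.0 and 49.4 CPM against 27.1, 33.5 and 29.9 CPM (log2FC 0.72 ± 0.10). NEU1, a lysosomal sialidase, rose by 0.65, GABARAPL1, an autophagosome protein, by 0.64, and the protease CTSD by 0.51. TFEB, a regulator of this group, was not called (0.17 ± 0.15).

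Osmolyte and tonicity genes rose in 5 of 10 cases and fell in 1 (median 0.54). SLC5A3, which imports myo-inositol, measured 192, 120 and 106 CPM against 40.6, 35.2 and 35.5 CPM (log2FC 1.91 ± 0.21). AQP3, a channel for water and glycerol, measured 66.5, 42.9 and 43.3 CPM against 13.9, 10.8 and 11.1 CPM (log2FC 2.08 ± 0.21). For both genes replicate 1 at 1.2 mg/mL was the highest library and the groups did not overlap. SLC6A12, the betaine carrier, had 139, 30 and 37 counts at 1.2 mg/mL and 4, 14 and 6 at 0.24 mg/mL. SLC6A6, the taurine carrier, rose by 0.75 on the log2 scale, and SLC5A6, a vitamin carrier, was the member that fell (-0.50 ± 0.07).

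Signalling and lipid genes gave smaller groups. Of 12 TGF-beta and BMP targets, 7 rose and 1 fell (median 0.55): ID3 rose by 0.95, the pseudoreceptor BAMBI by 0.84 and the ligand BMP4 by 0.77. Wnt targets rose in 5 of 10 cases, with NOTUM at 0.78 ± 0.16 and AXIN2 at 0.46 ± 0.09. Interferon response genes rose in 9 of 20 cases and fell in none (median 0.52), among them the RNA sensor RIGI, at 20.1, 22.9 and 20.1 CPM against 13.0, 11.6 and 10.3 CPM (log2FC 0.85 ± 0.13). Among LXR targets 5 of 9 rose, with the sterol exporter ABCG1 at 8.39, 5.83 and 5.47 CPM against 2.54, 1.36 and 1.79 CPM (log2FC 1.78 ± 0.21). The LXR count was 2 without replicate 1 at 1.2 mg/mL or without replicate 3 at 0.24 mg/mL, and 3 without replicate 2 at 0.24 mg/mL. Cholesterol synthesis and uptake genes were split, with 6 of 23 higher and 4 lower, beside 13.7% and 15.5% of all tested genes. By total count alone 8 were higher and 2 lower. The number higher was 3 without replicate 3 at 1.2 mg/mL or without replicate 1 at 0.24 mg/mL.

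Among immediate early genes, 2 of 18 rose and 5 fell, beside 13.7% and 15.5% of all tested genes. Scaling to the total count alone gave 5 and 3. The number that fell was 3 without replicate 2 or replicate 3 at 0.24 mg/mL. The number that rose was 1 without replicate 1 at 0.24 mg/mL and without replicate 1 or replicate 3 at 1.2 mg/mL. EGR1, an early growth factor response gene, measured 29.6, 40.7 and 42.8 CPM at 1.2 mg/mL and 94.2, 141 and 149 CPM at 0.24 mg/mL (log2FC -1.76 ± 0.21). On the list of metallothioneins and other zinc genes, 2 of 6 tested members fell. They were the metallothioneins MT1E (135, 164 and 179 CPM at 0.24 mg/mL, 73.5, 85.2 and 80.2 CPM at 1.2 mg/mL) and MT2A (-0.97 ± 0.18), which bind zinc and copper. Reads of the metallothionein family may be shared between its copies. The antioxidant NRF2 list was split, with 3 of 12 higher and 5 lower. Members of the heat shock list fell in 7 of 12 cases and rose in 1, and 4 fell with scaling to the total count alone. NFKBIA, the inhibitor of NF-kB, rose by 1.24, and 3 of 11 NF-kB targets and chemokines rose in all.

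The largest rises among genes with a mean log2 CPM of 1 or more began with ANK1 and AKR1C3. ANK1, an ankyrin of the membrane skeleton, measured 18.0, 10.6 and 10.7 CPM against 1.90, 0.913 and 0.764 CPM (log2FC 3.44 ± 0.57, adjusted p = 0.000306, edgeR). AKR1C3, an aldo-keto reductase that converts steroids and prostaglandins, measured 7.0, 4.22 and 4.62 CPM against 1.09, 0.512 and 0.885 CPM (log2FC 2.65 ± 0.23), and near-identical AKR1C copies may share its reads. Replicate 1 at 1.2 mg/mL was again the highest library for both. AOAH, a lipase that detoxifies lipopolysaccharide, rose by 2.40, a gene without a symbol by 2.37, the cadherin FAT4 by 2.05, the cytokine IL15 by 2.04 and CYP1A1, the detoxifying oxidase induced by the aryl hydrocarbon receptor, by 1.99. INPP5D rose by 1.98, CLIC3 by 1.91, BFSP1 by 1.82 and METTL7A by 1.81. The other large falls were NIBAN1 (-1.75 ± 0.12), UPP1 (-1.42 ± 0.24), VGF (-1.38 ± 0.27) and ELFN1 (-1.35 ± 0.16).

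Epithelial markers of a colon line were present at a high level: their summed level was 4325 to 4788 CPM at 1.2 mg/mL and 4092 to 4526 CPM at 0.24 mg/mL. Unlike the other levels, the marker sums given here are relative to the library total without TMM scaling. Leaving that scaling out raises the values at 1.2 mg/mL (factors 1.029 to 1.057) relative to 0.24 mg/mL (0.959 to 0.972). No direction is therefore read from the epithelial sums. Of the 8 epithelial markers 2 rose, CLDN4 (0.85 ± 0.12) and ELF3 (0.45 ± 0.08), and 2 fell, CLDN7 (-0.58 ± 0.08) and KRT18. KRT20, a keratin of differentiated gut epithelium, rose from 2.19, 1.40 and 1.65 CPM to 6.12, 5.88 and 5.47 CPM. It was on a list of intestinal differentiation genes of which 4 were tested, and the other 3 were not called. Markers of other cell types had far lower sums, and some rose with the dose. The 10 leukocyte markers summed to 4.22 to 6.14 CPM at 1.2 mg/mL and 2.28 to 2.45 CPM at 0.24 mg/mL, with S100A8 and S100A9 at 0 in all 6 libraries. The 6 endothelial markers summed to 3.69 to 4.72 CPM against 0.905 to 1.70 CPM. Of that sum, PECAM1, an adhesion molecule, had 96, 86 and 60 counts against 6, 11 and 0. TEK, the angiopoietin receptor, had 20, 36 and 20 counts against 0, 0 and 4, a ratio of 19.2 relative to library size (exact 95% interval 7.21 to 72.4, counting error only). Both were called, and CDH5, a cadherin of endothelial junctions, had 2 counts in all at 1.2 mg/mL and 0 at 0.24 mg/mL. Fibroblast markers summed to 22.6 to 33.2 CPM against 15.1 to 16.1 CPM, nearly all of it COL1A1 (log2FC 0.71 ± 0.11), with DCN and LUM at 0. Platelet markers summed to 21.3 to 22.9 CPM against 26.1 to 29.3 CPM with PPBP and PF4 at 0, and their called member was NRGN (-0.60 ± 0.10). Erythroid markers summed to 0.402 to 0.963 CPM against 0.116 to 0.365 CPM, and hepatocyte markers to 3.30 to 3.83 CPM against 2.26 to 3.53 CPM with APOB at 0. Their part in the changes described above was not tested.

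At the next dose step down no gene was called. Between 0.24 and 0.048 mg/mL of HCC+ EVs, also a 5-fold step, 0 of 19556 genes were called by edgeR (0%) and 0 by DESeq2, with 523 at an unadjusted p under 0.05. The step uses the same 3 libraries at 0.24 mg/mL, so the values are given side by side. The median log2FC of the ATF4 list was -0.82 for the upper step and 0.05 for the lower one. For DNA replication the medians were -0.38 and 0.01, and for p53 targets 0.43 and -0.03. PCK2 stood at 23.9 ± 1.5 CPM (SD, n = 3) at 1.2 mg/mL, 107 ± 4.5 CPM at 0.24 mg/mL, 108 ± 7.5 CPM at 0.048 mg/mL and 108 ± 9.8 CPM in the blank. The last 3 of these differ by less than their spread.

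Tested directly, the 2 steps differed in 1733 genes (8.86%), 727 toward a more positive upper step (3.72%) and 1006 toward a more negative one (5.14%). With scaling to the total count alone 69.5% of these calls were positive, against 42.0%. The count was 586 without replicate 3 at 0.24 mg/mL, 755 without replicate 2 at that dose, 1069 without replicate 1 at 1.2 mg/mL and 1083 without replicate 1 at 0.048 mg/mL. Among the genes with the largest differences, PCK2 differed by -2.15 on the log2 scale (adjusted p = 1.69e-11), EGR1 by -2.20, CHAC1 by -1.90, NIBAN1 by -1.85 and DDIT3 by -1.75. On the other side stood AKR1C3 (3.56), H2AC6 (2.69), H2BC5 and H3C6 (2.34 each) and AOAH (2.31). The libraries at 0.24 mg/mL enter both steps, so a high or low level there shifts the steps in opposite directions. AKR1C3 had a mean of 0.828 CPM at 0.24 mg/mL, 1.59 CPM at 0.048 mg/mL and 1.16 CPM in the blank. Its upper step was 2.65 and its lower step -0.91, the latter not called. Of the 18 ATF4 genes 10 differed, all toward a more negative upper step. Of the 24 DNA replication genes 11 did so, and 7, 6 and 4 without replicate 1, 2 or 3 at 0.24 mg/mL, and 18 when only the groups compared were fitted.

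**Figure D4:**
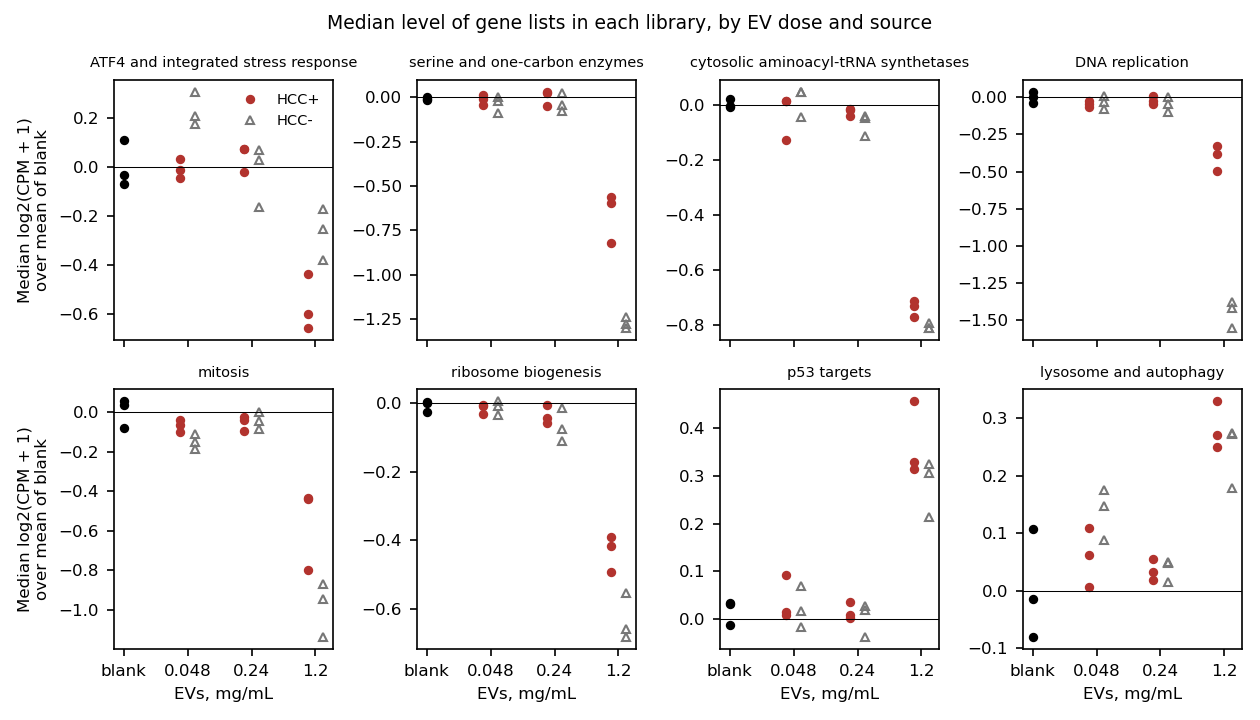
Median over the members of 8 gene lists of log2(CPM + 1) minus the mean of the 3 blank libraries, in each library of the blank and of HCC+ EVs (filled) and HCC- EVs (open) at 3 doses. At 1.2 mg/mL DNA replication lies at -0.50 to -0.33 for HCC+ and -1.55 to -1.38 for HCC-, while the ATF4 list lies at -0.66 to -0.44 for HCC+ and -0.38 to -0.17 for HCC-.

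The same 5-fold step was made with HCC- EVs in libraries that the HCC+ comparison does not share. There 10139 genes were called (51.8%), 4671 higher (23.9%) and 5468 lower (28.0%). A test of the difference between the 2 steps called 4172 genes (21.3%). In 2947 the HCC+ step was the more positive (15.1%) and in 1225 the more negative (6.26%). With scaling to the total count alone 37.8% of such calls were positive, and 51.6% with GC and length trends removed, against 70.6%. At 1.2 mg/mL the TMM scaling factors were 1.163 to 1.165 for HCC- EVs and 1.029 to 1.057 for HCC+ EVs. The HCC- libraries at that dose had 18882 to 19466 genes with at least 10 counts, against 17727 to 17969 for HCC+.

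For PSAT1 and PHGDH, enzymes of serine synthesis, the steps of the 2 sources were not called different. The log2FC of PSAT1 was -1.61 for HCC+ and -1.60 for HCC-, a difference of -0.01 with a 95% interval from -0.19 to 0.17 (adjusted p = 0.947, edgeR). For PHGDH the steps were -1.32 and -1.34 (interval of the difference -0.16 to 0.20), and for PCK2 -2.16 and -2.12 (-0.31 to 0.23). With GC and length trends removed PSAT1 differed by -0.22 and was called. PSPH had steps of -0.49 and -0.69, a difference of 0.20 ± 0.09 that was not called (adjusted p = 0.122, edgeR). TP53INP1 rose by 1.59 and 1.51 (-0.32 to 0.48).

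Stress genes of the ATF4 list fell further with HCC+ EVs. CHAC1 measured 12.8, 8.50 and 8.42 CPM at 1.2 mg/mL of HCC+ EVs, while with HCC- EVs it stood at 32.7 ± 9.3 CPM (SD, n = 3) at 1.2 mg/mL and 31.5 ± 5.6 CPM at 0.24 mg/mL. Its steps of -1.86 and 0.06 differed by -1.91 ± 0.26 (adjusted p = 2.95e-05, edgeR). DDIT3 differed by -1.17 ± 0.31, ASNS by -0.84 ± 0.19 and ATF4 by -0.46 ± 0.09. ATF3, not called in the HCC+ step, rose by 0.77 in the HCC- step, a difference of -0.98 ± 0.12. Both chains of the LAT1 exchanger differed, SLC3A2 by -0.56 ± 0.10 and SLC7A5 by -0.48 ± 0.10. In all, 6 of 18 members of the ATF4 list differed, each with the more negative step in HCC+, and none the other way.

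Replication genes fell less with HCC+ EVs. All 24 had the more positive step in HCC+, at medians of -0.38 for HCC+ and -1.51 for HCC-, and all 24 were called under every alternative tried. MCM2, a helicase subunit, had steps of -0.53 and -1.55, a difference of 1.02 ± 0.10 (adjusted p = 1.71e-08, edgeR). For RRM1 the difference was 0.99 ± 0.10. E2F1 was not called in the HCC+ step and fell by 1.28 in the HCC- step, a difference of 1.51 ± 0.13. Among mitosis genes 14 of 23 differed, such as MKI67 by 0.38 ± 0.09, while CCNB2, with steps of -0.84 and -1.03, did not pass (difference 0.20, interval -0.03 to 0.42), and was called without replicate 1 at 1.2 mg/mL of HCC+ EVs.

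The largest positive differences among genes whose mean log2 CPM was 1 or more were RIBC2 (2.70 ± 0.32), GPR137C (2.42 ± 0.43), the nuclease EXO1 (1.92 ± 0.14), the PCNA partner PCLAF (1.74 ± 0.22) and the clamp loader subunit RFC5 (1.69 ± 0.13). EXO1 was at 46.3 ± 6.9 CPM (SD, n = 3) with HCC+ EVs at 1.2 mg/mL and at 12.6 ± 2.2 CPM with HCC- EVs. On the negative side, after CHAC1, were the axonemal dynein DNAH10 (-1.86 ± 0.25), the microRNA host MIR23AHG (-1.83 ± 0.20), AKR1B1 (-1.73 ± 0.22), the enzyme that makes sorbitol, and CMYA5 (-1.61 ± 0.33). AKR1B1 rose by 2.12 with HCC- EVs and was not called with HCC+ EVs, at 110, 77.5 and 77.9 CPM against 68.5, 67.4 and 66.6 CPM. SLC5A3 rose in both (1.91 and 2.97), a difference of -1.06 ± 0.29 that was not called when only the 4 groups compared were fitted (adjusted p = 0.0602). The histone genes H2BC5 and H1-2 rose less with HCC+ EVs, by -1.26 ± 0.23 and -1.18 ± 0.18.

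Other lists also differed by source. Cholesterol synthesis and uptake genes had the more positive step in HCC+ for 18 of 23 members (13 with scaling to the total count alone), at medians of -0.05 and -0.60. Serine and one-carbon enzymes did so for 7 of 12 and the reverse for 1, at medians of -0.68 and -1.31. For tRNA synthetases the count was 10 of 18, and with scaling to the total count alone 2 were more positive and 4 more negative. NEAT1, a nuclear long RNA, rose in both sources: it stood at 137 ± 9.1 CPM (SD, n = 3) for HCC+ and 230 ± 6.3 CPM for HCC- at 1.2 mg/mL, and at 76.9 ± 1.4 and 82.7 ± 9.8 CPM at 0.24 mg/mL. Its part in the differences above was not tested.

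**Figure D5:**
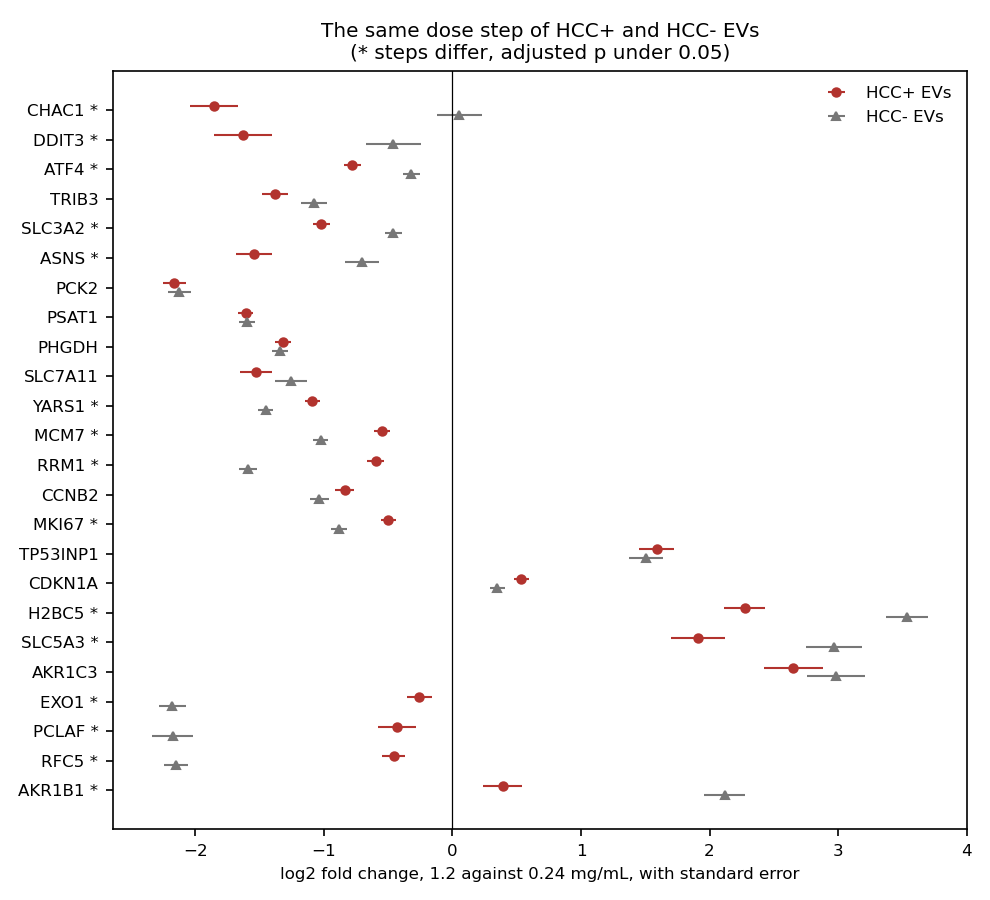
Log2 fold change of 1.2 against 0.24 mg/mL with its standard error for 24 genes, for HCC+ EVs (circles) and HCC- EVs (triangles), with an asterisk where the 2 steps differ at an adjusted p under 0.05. PCK2, PSAT1 and PHGDH lie together, CHAC1 (-1.86 and 0.06) falls with HCC+ EVs, and EXO1, PCLAF and RFC5 fall further with HCC- EVs.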

How the data were processed

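The authors deposited a table of raw read counts for 65065 Ensembl gene identifiers. Per the submitters' processing notes, cutadapt 3.4, HISAT2 2.2.1, featureCounts 2.0.1 and GRCh38 were used; the annotation release and how strand and multimapped reads were handled are not stated. Symbols were found for 41967 identifiers. All 21 libraries entered 1 edgeR 4.0.16 quasi-likelihood fit under R 4.3.3 with 7 group means, TMM factors (0.959 to 1.057 in the 6 libraries), filterByExpr, robust dispersions and 2-sided tests. The common biological coefficient of variation was 0.0885 and the residual degrees of freedom were 14. The 95% intervals of differences are the SE times the t quantile at these degrees of freedom. Fits were tested on simulated data. The members and lists were chosen with earlier results of these data known.

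Genes were named by rule: up to 15 rising and 15 falling by log2FC where called, mean log2 CPM was 1 or more and the libraries of both doses were apart; per list the 4 called members of smallest p, called members against the majority and the largest uncalled one; called markers of other cell types; and 5 each way for the other tests. Other members named, and the counts of low genes, were chosen after their values were seen. Of 258 genes so named, part are given. A few list members that the counts include are not reported by name here. DESeq2 1.42.0, other scaling and filters, removal of GC and length trends, a replicate block and each library left out were alternatives. Promoters came from RefSeq (GRCh38.p14). Figures used matplotlib 3.10.9 under Python 3.11.15.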

Additional observations from a re-analysis of the deposited data

Results flagged for a closer look

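These results are given again because the 1.2 against 0.24 mg/mL step of HCC+ EVs differed from that of HCC- EVs by a test of the difference itself (edgeR, adjusted p under 0.05). It did so for 4172 of 19556 tested genes (21.3%). Of the 250 genes named by rule for the HCC+ step, 103 were among them, and so were all 24 DNA replication genes. Of those named genes 207 had been called in the HCC+ step, so they do not stand for all genes. Values are log2 differences, HCC+ minus HCC-.

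More positive with HCC+ were RIBC2 (2.70), GPR137C (2.42), EXO1 (1.92), PCLAF (1.74), RFC5 (1.69), E2F1 (1.51), MCM2 (1.02), RRM1 (0.99) and MKI67 (0.38). More negative were CHAC1 (-1.91), DNAH10 (-1.86), MIR23AHG (-1.83), AKR1B1 (-1.73), CMYA5 (-1.61), H2BC5 (-1.26), H1-2 (-1.18), DDIT3 (-1.17), SLC5A3 (-1.06), ATF3 (-0.98), ASNS (-0.84), SLC3A2 (-0.56), SLC7A5 (-0.48) and ATF4 (-0.46). So the same dose step gave more negative values for stress factors such as CHAC1 and DDIT3, and more positive ones for replication genes such as EXO1 and MCM2, with HCC+ than with HCC- EVs.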

How the results depend on the processing

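The count of genes called for the HCC+ step stayed within 1.5 times 5704 under every alternative, from 4169 with a library left out to 6824 with GC and length trends removed, and DESeq2 called 5865. The lower HCC+ step had 0 calls under all alternatives. The difference between the sources ranged from 3016 to 4992 calls, and the HCC- step from 9030 to 10852. The difference of the 2 HCC+ steps was less stable: 3006 calls with trends removed, 2621 in a fit of only the groups compared, and 586 to 1798 with a library left out. The replicate number did not pair libraries (correlations of residuals of same-numbered libraries -0.003 to 0.030 between the 2 doses), and the replicate block gave 5740 calls.

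Of 207 called genes named for the HCC+ step, 173 kept their call and direction under every alternative that gave a value, and none reversed. Counts of members of lists moved by over 1.5 times in 53 cases and not in 584; the cause was not tested. Depth limits genes with few counts, and 3 libraries a group and 1 cell line limit the rest.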
